A study of Mus musculus with 48 samples.

Results

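The genes followed here carry lipoproteins through their life cycle in the liver: Apob and Mttp (assembly), Lipc, Lcat and Pltp (remodelling in plasma) and Scarb1 (uptake). They were taken by name, with earlier results of these data known. They are 6 of the 37583 genes in the deposited RNA table. All 6 are among the 17771 genes that reached 10 in 2 or more libraries. The study is on mouse liver and holds 48 samples, of which 8 RNA libraries and 20 peak lists were used here. The RNA came from livers of F1 mice (C57Bl6/CBA): 3 wild type (WT), 3 labelled C/EBPa lox/lox with Alfp-Cre and 2 labelled HNF4a lox/lox with Alfp-Cre. The labels name no allele or treatment shared by all groups and do not say whether WT animals carry loxP alleles. Alfp-Cre drives Cre recombinase in the hepatoblast lineage, so cells outside that lineage keep the targeted gene. The sample labels date the RNA livers to postnatal day 60, while the series text gives embryonic day 18.5 (E18.5), and this was not resolved. The peak lists come from chromatin immunoprecipitation with sequencing (ChIP-seq) of C/EBPα and HNF4α in wild-type livers of the same F1 cross, with 2 replicates at each of 5 stages, from E15.5 and E18.5 to 0.5, 14 and 60 days after birth (P0.5, P14, P60).

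The liver exports triglyceride and cholesterol in very low density lipoprotein. Each such particle is built around 1 molecule of apolipoprotein B, the product of Apob, which the microsomal triglyceride transfer protein made from Mttp loads with lipid in the endoplasmic reticulum. In plasma, hepatic lipase (Lipc) hydrolyses triglyceride and phospholipid of remnants and high density lipoprotein, lecithin-cholesterol acyltransferase (Lcat) esterifies cholesterol on high density lipoprotein, and phospholipid transfer protein (Pltp) moves phospholipid between particles. Scarb1 encodes the receptor SR-BI, which takes cholesteryl ester from high density lipoprotein into hepatocytes. C/EBPα and HNF4α are transcription factors with broad roles in hepatocyte gene expression.

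The 250 bases before the RefSeq transcription start are shown for 4 of the genes, between which the letters that match the factors' motifs differ. Peaks were not the ground for this choice, since both factors had peaks within 50 kb of all 6 genes. Lcat, whose window is not shown, had peaks of both factors within 1 kb of its start. The sequences are RefSeq's on build GRCm38.p6, the strand of the gene, and 5 of the 6 genes had an entry (Scarb1 was not among them). Capitals mark matches on either strand to an HNF4-type motif (CAAAGNNCA, reverse TGNNCTTTG), a C/EBP-type motif (TTGCNNAA, reverse TTNNGCAA) or a TATA box (TATAAA, reverse TTTATA). Lipc has a pair of RefSeq starts, 17.4 kb apart, the second downstream of the first. The windows are chr12:7977427-7977676 (+) for Apob, chr3:138143419-138143668 (-) for Mttp, chr9:70952222-70952471 (-) and chr9:70934809-70935058 (-) for Lipc, and chr2:164857709-164857958 (-) for Pltp.
Apob: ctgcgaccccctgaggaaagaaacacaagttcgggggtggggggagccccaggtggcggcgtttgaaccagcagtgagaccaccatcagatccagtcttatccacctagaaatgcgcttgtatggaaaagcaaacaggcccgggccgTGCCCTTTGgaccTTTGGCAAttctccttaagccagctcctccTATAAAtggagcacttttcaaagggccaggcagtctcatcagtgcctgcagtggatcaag
Mttp: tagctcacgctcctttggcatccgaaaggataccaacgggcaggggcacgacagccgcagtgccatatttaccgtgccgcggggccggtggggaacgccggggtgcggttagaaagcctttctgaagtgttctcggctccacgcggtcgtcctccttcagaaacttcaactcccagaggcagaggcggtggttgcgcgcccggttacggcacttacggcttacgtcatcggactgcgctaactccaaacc
Lipc start 1: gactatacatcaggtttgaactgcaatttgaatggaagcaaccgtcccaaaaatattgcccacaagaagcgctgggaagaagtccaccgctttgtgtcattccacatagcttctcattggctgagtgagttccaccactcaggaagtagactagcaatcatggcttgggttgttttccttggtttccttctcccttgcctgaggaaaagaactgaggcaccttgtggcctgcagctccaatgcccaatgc
Lipc start 2: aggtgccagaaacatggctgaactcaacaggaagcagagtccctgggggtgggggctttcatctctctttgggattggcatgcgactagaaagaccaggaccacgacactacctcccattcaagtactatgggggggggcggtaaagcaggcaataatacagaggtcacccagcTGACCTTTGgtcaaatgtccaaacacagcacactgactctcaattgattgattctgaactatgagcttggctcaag
Pltp: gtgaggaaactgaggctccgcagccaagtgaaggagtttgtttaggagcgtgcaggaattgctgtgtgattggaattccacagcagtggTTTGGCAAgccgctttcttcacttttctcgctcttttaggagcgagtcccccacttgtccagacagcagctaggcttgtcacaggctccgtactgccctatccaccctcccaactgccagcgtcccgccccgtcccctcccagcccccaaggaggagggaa
In Apob, TGCCCTTTG began at -103, TTTGGCAA at -90 and TATAAA at -60, counting the base before the start as -1. The second Lipc start had TGACCTTTG at -76 and no other match. Pltp had TTTGGCAA at -161 and no match to the HNF4-type motif. The windows of Mttp, of the first Lipc start and of Lcat (not shown) had no match to any of the 3 motifs. Of 32851 RefSeq promoters of the same length, 5.49% held the HNF4-type motif, 9.56% the C/EBP-type motif and 12.4% the TATA box. These are letter matches in a short window and not measured sites.

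In the RNA, the genes moved in different ways in the 2 knockouts. Apob, Mttp and Lipc were lowest in the HNF4α knockout, at 2.67%, 15.4% and 6.31% of the WT mean. Lcat and Scarb1 were lowest in the C/EBPα knockout, at 34.5% and 46.2% of WT, and stood at 76.3% and 118% in the HNF4α knockout. Pltp was the 1 gene with a higher mean in the HNF4α knockout than in either other group by over 2-fold, at 256% of WT. Values are normalised reads per gene, as deposited. They are compared between libraries, not between genes.

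**Figure D1:**
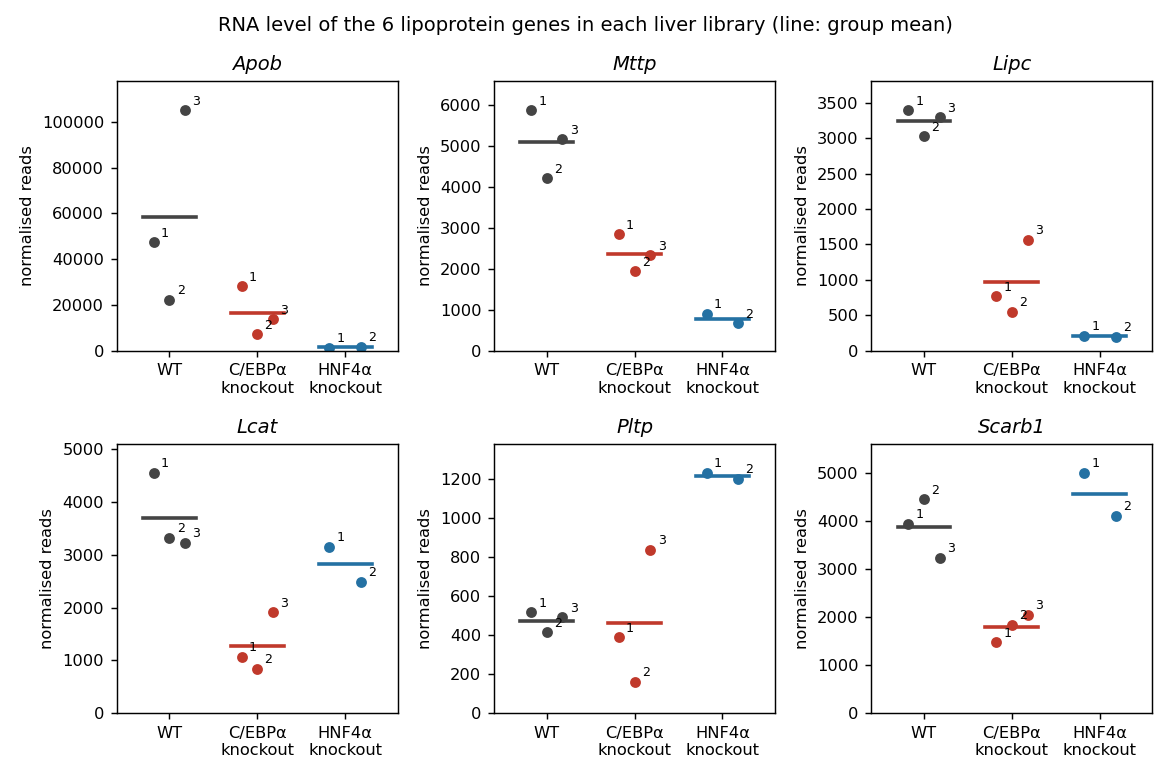
Normalised reads (vertical axes, linear, from 0) of the 6 genes in each of the 8 liver libraries; points are libraries with their replicate number, and lines are group means. Apob, Mttp and Lipc have both HNF4α knockout libraries at the bottom, Lcat and Scarb1 have the 3 C/EBPα knockout libraries at the bottom, and Pltp has both HNF4α knockout libraries at the top.

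Library labels were checked first on the targeted genes. Cebpa was at 6.93% of WT in the C/EBPα knockout (log2 change -3.98 ± 0.44 SE, adjusted p = 0.000413) and Hnf4a at 26.6% of WT in the HNF4α knockout (-1.95 ± 0.45, adjusted p = 0.033). The other factor was also below every WT library in each knockout without passing: Hnf4a was at 45.9% of WT in the C/EBPα knockout (-1.14 ± 0.40, adjusted p = 0.188) and Cebpa at 50.1% in the HNF4α knockout (-0.95 ± 0.49, adjusted p = 0.299). Normalised totals ranged from 13.4 to 26.0 M per library. Those of the C/EBPα knockout (13.4, 16.1 and 16.4 M) were all below those of the other libraries (20.0 to 26.0 M). All 5 hepatocyte markers (Alb, Trf, Ahsg, Ambp, Fgb) were above 0 in every library, and their summed level was 2098334 to 3743472 in WT, 153190 to 740367 in the C/EBPα knockout and 1075773 to 1545711 in the HNF4α knockout. Of these 5, Fgb fell in the C/EBPα knockout and none passed in the HNF4α knockout. The 5 did not move together in the HNF4α knockout. Alb, Trf and Fgb were at 26.4%, 36.2% and 49.7% of WT there, and Ahsg and Ambp at 128.8% and 135.9%. Bile duct markers moved with the C/EBPα knockout, where 3 of 7 rose (Sox9, Spp1, Cldn7); the 7 summed to 1420 to 2704 in WT, 7869 to 10265 in the C/EBPα knockout and 2293 and 2580 in the HNF4α knockout. Of 8 intestinal markers Fabp2 and Vil1 also rose there, with sums of 66 to 126 in WT and 443 to 982 in the C/EBPα knockout, while Cdx1, Cdx2, Sis and Alpi were at 0 to 2 in every library. The part of these changes in the values below was not tested. HNF4α knockout replicate 1 stands apart, with 576380 summed reads of 6 skeletal muscle markers against at most 999 in any other library. Libraries also differed in how levels follow the GC content of genes. The rank correlation across 17771 genes was lowest in WT replicate 3 (-0.485), then in C/EBPα knockout replicate 1 (-0.323). It was 0.358 and 0.331 in the HNF4α knockout and 0.275 in the third C/EBPα knockout library. In the remaining libraries it lay between -0.11 and -0.009. Apob, Mttp and Lipc, lowest in the HNF4α knockout, had 24.6%, 26.0% and 48.3% of genes below them in GC content. For Pltp, Scarb1 and Lcat these shares were 67.0%, 75.9% and 81.9%. The part of GC content in the changes below was not tested. In bulk liver, fewer hepatocytes and less RNA per hepatocyte cannot be told apart. Nothing in the labels ties libraries to separate animals, so p-values measure the spread between these samples.

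Apob (ENSMUSG00000020609, mm9 chromosome 12, 7984454 to 8023641, plus strand) was at 47448, 22214 and 105213 in WT. It was at 28066, 7325 and 13792 in the C/EBPα knockout and at 1347 and 1768 in the HNF4α knockout. Both HNF4α knockout libraries lay below all 6 others, and the C/EBPα knockout overlapped WT, since its replicate 1 was above WT replicate 2. In the HNF4α knockout Apob fell 31.1-fold (log2 -4.96 ± 0.70 SE, n = 2 and 3, limma adjusted p = 0.00242). In the C/EBPα knockout the mean was 28.1% of WT, which did not pass (-1.76 ± 0.63, adjusted p = 0.194). The highest Apob values of WT and of the C/EBPα knockout were in the third WT library and the first C/EBPα knockout library, those with the strongest negative GC trend, and Apob has a GC content of 42.5%, with 24.6% of genes lower. Without those libraries the change in the HNF4α knockout was -4.39 ± 0.56 (adjusted p = 0.0122) and that in the C/EBPα knockout -1.69 ± 0.56 (adjusted p = 0.273). That fit kept both HNF4α knockout libraries, whose GC trend was positive. The call in the HNF4α knockout was lost without its replicate 1 (-4.76 ± 0.98, adjusted p = 0.0524), the library that also holds the muscle transcripts.

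Mttp (ENSMUSG00000028158, chromosome 3, 137752819 to 137806352, minus strand) was at 5887, 4217 and 5172 in WT. It was at 2844, 1939 and 2339 in the C/EBPα knockout and at 905 and 666 in the HNF4α knockout. The 3 groups did not overlap, in the order WT, C/EBPα knockout, HNF4α knockout. Mttp fell 6.49-fold in the HNF4α knockout (-2.70 ± 0.35, adjusted p = 0.0013), a call that held with each library left out in turn. In the C/EBPα knockout it stood at 46.6% of WT (-1.10 ± 0.31, adjusted p = 0.0879), short of the threshold. P4hb, which encodes protein disulfide isomerase, the partner subunit of the transfer protein, was at 15296, 19650 and 20643 in WT and 18596 and 18221 in the HNF4α knockout (0.00 ± 0.43, adjusted p = 0.998). In the C/EBPα knockout P4hb was at 13070, 8984 and 10307, below every WT library, which did not pass (-0.79 ± 0.39, adjusted p = 0.401).

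Lipc (ENSMUSG00000032207, chromosome 9, 70645936 to 70800033, minus strand) was at 3400, 3029 and 3300 in WT, the tightest WT group of the 6 relative to its mean. It was at 770, 551 and 1570 in the C/EBPα knockout and at 213 and 196 in the HNF4α knockout. No group overlapped another. Lipc fell in both knockouts, 15.8-fold in the HNF4α knockout (-3.98 ± 0.42, adjusted p = 0.00061) and 3.71-fold in the C/EBPα knockout (-1.89 ± 0.38, adjusted p = 0.0175). The first call held with each library left out in turn. The second was lost without WT replicate 1, 2 or 3 (adjusted p = 0.0948, 0.0596 and 0.0576) or C/EBPα knockout replicate 1 (0.0743), while its size stayed between -1.94 and -1.80 in those fits. A gene on the opposite strand, Gm3436, shares 1913 bases with the Lipc span; whether the authors' counting used strand is not given in the sources used here. Gm3436 was at 102 to 137 in WT, 147 to 429 in the C/EBPα knockout and 140 and 470 in the HNF4α knockout.

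Lcat (ENSMUSG00000035237, chromosome 8, 108463451 to 108467282, minus strand) was at 4550, 3319 and 3227 in WT. It was at 1069, 845 and 1917 in the C/EBPα knockout and at 3154 and 2491 in the HNF4α knockout. The C/EBPα knockout libraries were the 3 lowest, and both HNF4α knockout libraries lay between them and the WT libraries. Lcat fell 3.04-fold in the C/EBPα knockout (-1.60 ± 0.36, adjusted p = 0.032). In the HNF4α knockout the change was -0.38 ± 0.40 (adjusted p = 0.622). The C/EBPα call is close to the threshold: it was lost on leaving out any 1 library other than C/EBPα knockout replicate 3, with adjusted p from 0.0598 (without HNF4α knockout replicate 1) to 0.187 (without WT replicate 1) and changes from -1.69 to -1.35. An antisense gene, Gm16156, covers the whole Lcat span of 3832 bases and was listed at 0 to 6 in every library.

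Scarb1 (ENSMUSG00000037936, chromosome 5, 125757457 to 125821464, minus strand) was also lowest in the C/EBPα knockout. It was at 3934, 4443 and 3232 in WT, at 1473, 1842 and 2053 in the C/EBPα knockout and at 4998 and 4100 in the HNF4α knockout. All C/EBPα knockout libraries were below all others, and the HNF4α knockout overlapped WT. The change was -1.11 ± 0.30 in the C/EBPα knockout (adjusted p = 0.0804) and 0.24 ± 0.34 in the HNF4α knockout (adjusted p = 0.722), and neither passed. Pdzk1, which encodes a scaffold protein that SR-BI needs to stay in the hepatocyte membrane, had its lowest values in the HNF4α knockout libraries. Pdzk1 was at 1535, 1467 and 1030 in WT, at 931, 1233 and 2036 in the C/EBPα knockout and at 151 and 119 in the HNF4α knockout. Pdzk1 fell 9.81-fold in the HNF4α knockout (-3.29 ± 0.40, adjusted p = 0.000983) and held with each library left out, and its change in the C/EBPα knockout was 0.00 ± 0.36 (adjusted p = 0.997).

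Pltp (ENSMUSG00000017754, chromosome 2, 164665018 to 164683211, minus strand) was at 518, 415 and 491 in WT. It was at 389, 163 and 837 in the C/EBPα knockout and at 1232 and 1201 in the HNF4α knockout. Both HNF4α knockout libraries were above all 6 others, and the C/EBPα knockout libraries spread to both sides of WT. Neither change passed, at 1.36 ± 0.55 in the HNF4α knockout (adjusted p = 0.196) and -0.33 ± 0.50 in the C/EBPα knockout (adjusted p = 0.851). The sign of the second depends on 1 library, since without C/EBPα knockout replicate 2 it was 0.27 ± 0.37 (adjusted p = 0.825), and scaling by library totals also gave 0.18 ± 0.50. With WT and HNF4α knockout libraries alone in the fit, the first passed (1.36 ± 0.27, adjusted p = 0.0245).

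Pltp is also made by macrophages, and 7 of their markers were read beside it. The summed level of 7 macrophage markers (Emr1, Clec4f, Cd68, C1qa, C1qb, Csf1r, Marco) was 12503, 13630 and 12253 in WT, 9616, 4405 and 19922 in the C/EBPα knockout and 22032 and 25472 in the HNF4α knockout. The lowest library on both measures was C/EBPα knockout replicate 2, and the 3 highest were C/EBPα knockout replicate 3 and both HNF4α knockout libraries. Cd68 rose in the HNF4α knockout (1.70 ± 0.42, adjusted p = 0.0458), and the other 6 did not pass there, from Emr1 and Clec4f at 93.1% and 99.5% of WT to C1qb and Marco at 240% and 379.7%. C1qb gave the most to the change of the sum, with group means of 4111 (WT) and 9867 (HNF4α knockout). None of the 7 was at 0 in any library. The 6 stellate cell and fibroblast markers summed to 9095 to 11299 in WT and 10196 to 13667 in the C/EBPα knockout. They summed to 40632 and 25749 in the HNF4α knockout, where Col1a1 and Col1a2 rose. Col1a1 went from a mean of 2188.3 in WT to 15690 and Col1a2 from 2090 to 11096, most of the change of the sum. The other 4 did not pass there, with Lrat, Reln and Dcn at 84.9%, 98.02% and 108.2% of WT and Pdgfrb at 247.5%. The part of these cells in the Pltp values was not tested. Ctsa, a lysosomal carboxypeptidase gene on the opposite strand, shares 1515 bases with Pltp; reads from the shared part cannot be told apart if counting ignored strand. Ctsa was at 1375, 2096 and 1594 in WT, at 1718, 1008 and 2690 in the C/EBPα knockout and at 2963 and 3238 in the HNF4α knockout, so its lowest library and its highest pair were those of Pltp.

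**Figure D2:**
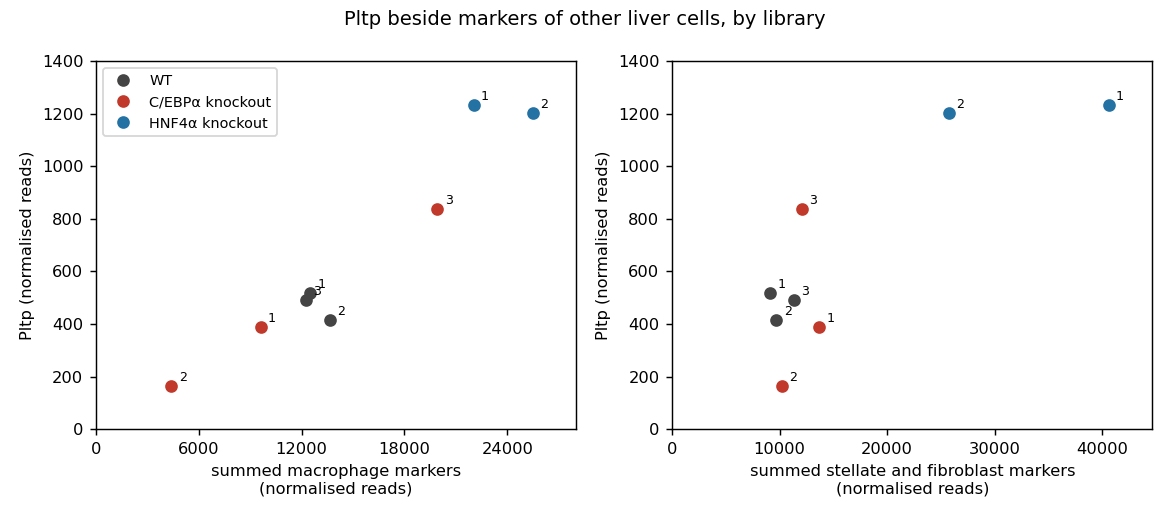
Pltp (vertical axes, normalised reads) against the summed level of 7 macrophage markers (left) and of 6 stellate cell and fibroblast markers (right), both linear axes from 0, 1 point per library with its replicate number. On the left, C/EBPα knockout replicate 2 is lowest on both axes and the HNF4α knockout libraries are highest on both. On the right, only the HNF4α knockout libraries lie above 13667, mostly through Col1a1 and Col1a2.

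Counted over the genes, 2 of 6 fell in the C/EBPα knockout (Lipc, Lcat) and none rose, where 3.75% of all genes tested passed, 2.86% lower and 0.883% higher. The median change was -1.36, against 0.03 over all genes. In 4 of 6 (Mttp, Lipc, Lcat, Scarb1) the C/EBPα knockout lay wholly below WT. Groups without overlap made up 18.8% of all genes tested, 10.3% lower and 8.54% higher. In the HNF4α knockout 3 of 6 fell (Apob, Mttp, Lipc) and none rose, where 4.70% of all genes passed, 3.17% lower and 1.54% higher. The median was -1.54, against 0.02 over all genes. In 5 of 6 the HNF4α knockout did not overlap WT, 4 lower and Pltp higher, beside 44.6% of all genes (22.4% lower, 22.1% higher), a high share with 2 libraries against 3. Both contrasts share the WT libraries.

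The difference between the knockouts was tested directly. Apob, Mttp and Lipc were higher in the C/EBPα knockout than in the HNF4α knockout, by 3.20 ± 0.70 (adjusted p = 0.0337), 1.59 ± 0.35 (adjusted p = 0.0325) and 2.09 ± 0.42 (adjusted p = 0.0224) on the log2 scale. For Lcat, Pltp and Scarb1 the difference had the opposite sign and did not pass, at -1.22 ± 0.40 (adjusted p = 0.136), -1.69 ± 0.55 (adjusted p = 0.132) and -1.35 ± 0.34 (adjusted p = 0.0571). In all 6 the knockouts did not overlap, as in 34.4% of all genes (17.0% lower, 17.4% higher), and 3.48% of all genes passed the test, 1.61% higher and 1.87% lower. All 3 calls were lost without C/EBPα knockout replicate 1 (adjusted p = 0.114, 0.117 and 0.0611), HNF4α knockout replicate 1 (0.332, 0.178 and 0.197) or HNF4α knockout replicate 2 (0.126, 0.209 and 0.125), and those of Apob and Mttp also without WT replicate 1 (0.0616 and 0.0664). With C/EBPα knockout replicate 3 left out, all 6 passed, with adjusted p = 0.0324 for Lcat, 0.017 for Pltp and 0.0406 for Scarb1.

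**Figure D3:**
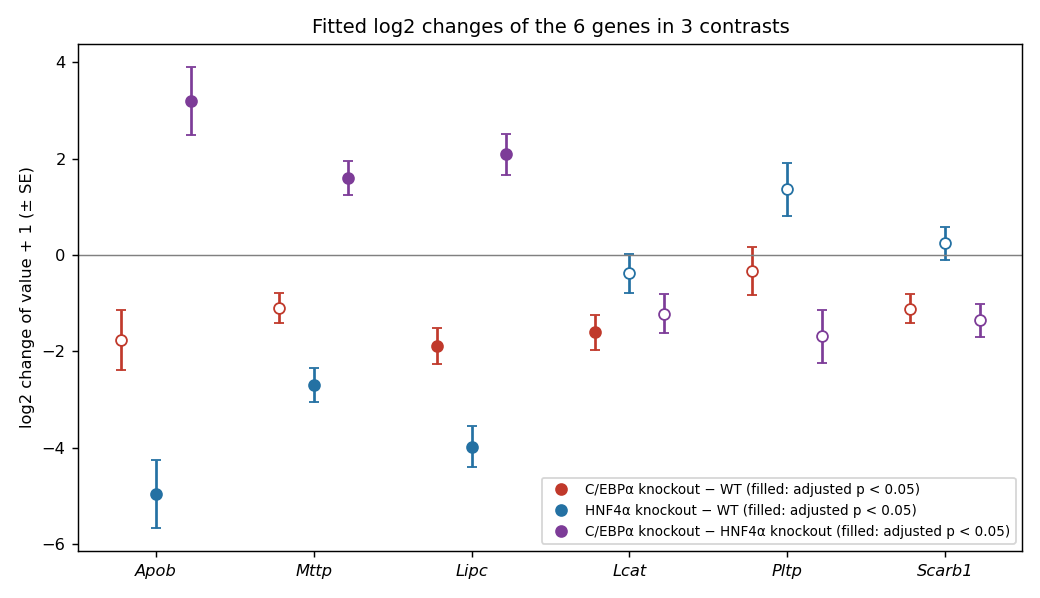
Fitted log2 changes of value + 1 (vertical axis, bars ± SE) of the 6 genes in 3 contrasts; filled points passed an adjusted p under 0.05. Apob, Mttp and Lipc lie at -4.96, -2.70 and -3.98 in the HNF4α contrast, while Lcat, Pltp and Scarb1 lie between -0.38 and 1.36 there.

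A list of 43 other genes of lipoprotein metabolism gave the setting, and all 43 were among the genes tested. In the C/EBPα knockout 6 fell and none rose (median -0.61), where 2.86% of all genes tested fell. In the HNF4α knockout 6 fell and none rose (median -0.64), where 3.17% of all genes fell. Abcg5 was the 1 gene in both sets. Among 12 partners of assembly and secretion none passed in the C/EBPα knockout, while in the HNF4α knockout Cideb, Pla2g12b and Soat2 fell. Cideb, a lipid droplet protein that helps load nascent particles, went from 3568, 3533 and 1669 in WT to 318 and 270 (-3.23 ± 0.43, adjusted p = 0.0015). Pla2g12b, an endoplasmic reticulum protein needed to fill such particles with lipid, went from 798, 784 and 452 to 75 and 85 (-3.02 ± 0.48, adjusted p = 0.0047). Soat2, which makes the cholesteryl ester of the particle core, went from 325, 348 and 375 to 72 and 111 (-1.95 ± 0.35, adjusted p = 0.00988), and was at 820, 817 and 675 in the C/EBPα knockout (1.14 ± 0.32, adjusted p = 0.0871). The Pla2g12b and Soat2 calls were lost without HNF4α knockout replicate 1 (adjusted p = 0.0722 and 0.17). Apobec1, the editing enzyme of Apob mRNA, was at 158 to 260 in WT, 158 to 223 in the C/EBPα knockout and 194 and 237 in the HNF4α knockout, with changes of -0.14 ± 0.36 and 0.01 ± 0.40.

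Of the 12 genes on the list named as apolipoproteins, 4 fell in the C/EBPα knockout and none passed in the HNF4α knockout. In each knockout 11 of 12 estimates were below 0 (medians -2.22 and -1.42). Apoc3, an inhibitor of triglyceride clearance, went from 1310, 3517 and 384 in WT to 28, 38 and 62 (-4.87 ± 0.66, adjusted p = 0.00167). Apoa5, which promotes triglyceride lipolysis, went from 1032, 1598 and 376 to 54, 13 and 77 (-4.45 ± 0.68, adjusted p = 0.00352). Apoc1 and Apoh also fell, with log2 changes of -3.36 ± 0.60 and -3.46 ± 0.52. In the HNF4α knockout these 4 genes stood at -1.42, -2.62, 0.82 and -1.98 in the order Apoc3, Apoa5, Apoc1, Apoh, with Apoa5 and Apoh short of the threshold (adjusted p = 0.0779 and 0.0782). The direct test between the knockouts passed for Apoc1 (-4.18 ± 0.67, adjusted p = 0.00781) and Apoc3 (-3.44 ± 0.74, adjusted p = 0.0315), both lower in the C/EBPα knockout, and not for Apoa5 (adjusted p = 0.232) or Apoh (adjusted p = 0.203).

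Of 9 genes of lipolysis and lipid efflux, 2 fell in the C/EBPα knockout and 2 in the HNF4α knockout. Abcg5 and Abcg8, the partner proteins of the canalicular sterol exporter, went from 73 to 260 and from 101 to 309 in WT to 1 to 3 and 2 to 5 in the C/EBPα knockout (-5.39 ± 0.91 and -5.48 ± 0.64). In the HNF4α knockout Abcg5 was at 19 and 1 (-4.40 ± 1.02, adjusted p = 0.034), a call lost without WT replicate 1, WT replicate 3 or HNF4α knockout replicate 2. Abcg8 was at 56 and 23 there and did not pass (adjusted p = 0.0951). Angptl4, a lipase inhibitor, fell in the HNF4α knockout from 2030, 1606 and 1801 to 448 and 328 (-2.23 ± 0.43, adjusted p = 0.0134), a call lost without WT replicate 1 or either HNF4α knockout library. Lpl, lipoprotein lipase, was lower than every WT library in both knockouts and passed in neither (-1.45 ± 0.40, adjusted p = 0.0833, and -1.19 ± 0.45, adjusted p = 0.164).

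Among 10 receptors and their partners, Pdzk1 was the 1 gene to pass in either contrast against WT. Between the knockouts, 4 of the 43 genes were higher in the C/EBPα than in the HNF4α knockout (Pla2g12b, Cideb, Soat2, Pdzk1) and 4 were lower (Apoc1, Apoc3, Abcg1, Abcg8), beside 1.61% and 1.87% of all genes.

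**Figure D4:**
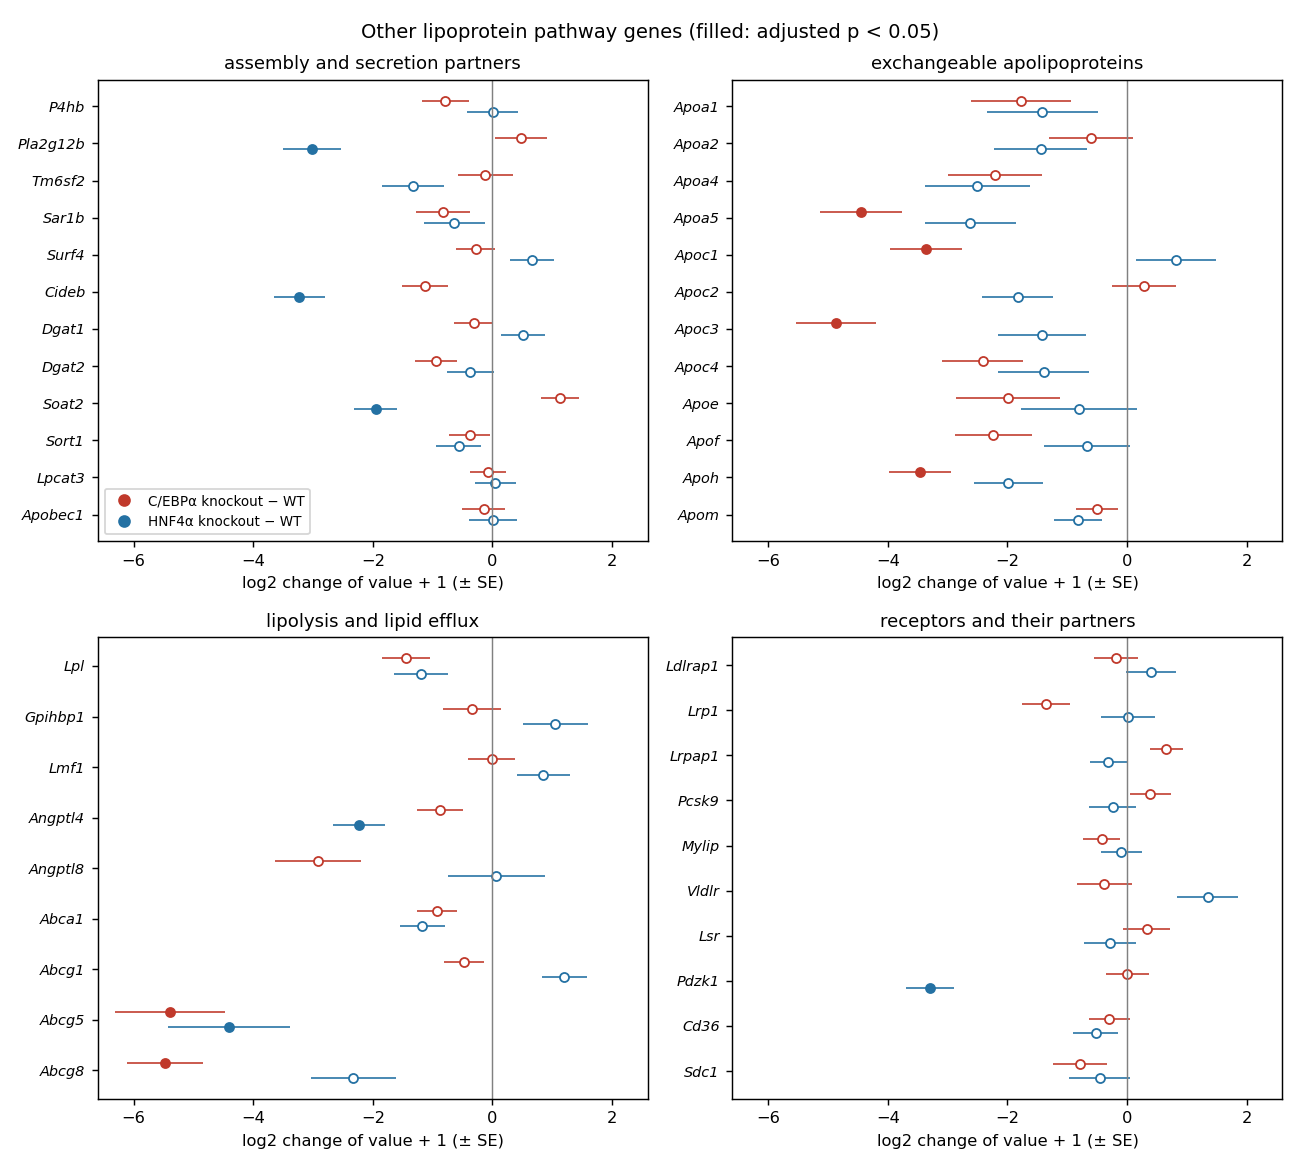
Log2 changes of value + 1 (horizontal axes, bars ± SE) of 43 other lipoprotein genes in 4 role groups, red for C/EBPα knockout minus WT and blue for HNF4α knockout minus WT; filled points passed an adjusted p under 0.05. Filled blue points are Pla2g12b, Cideb, Soat2, Angptl4 and Pdzk1, filled red points Apoa5, Apoc1, Apoc3, Apoh and Abcg8, and Abcg5 is filled in both colours.

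Binding was read next, as regions where the peak lists of both replicates overlap by at least 1 bp, placed against the annotated gene start in mm9. Of 30 gene and stage pairs, 20 had a C/EBPα region within 5 kb and 20 an HNF4α region. The C/EBPα lists differ widely in size between stages. Apob and Scarb1 were bound at E15.5, 5 genes at E18.5 and at P0.5, and 4 at P14 and at P60. Over all genes tested, the shares with such a region were 13.9%, 53.0%, 67.4%, 39.8% and 40.1% in the same order. For HNF4α 4, 3, 3, 5 and 5 genes were bound, beside 38.3%, 12.8%, 32.7%, 31.0% and 40.1% of all genes. At P0.5 the HNF4α lists of the replicates hold the same peaks and count as 1 library, so that stage has no replicate check. A site below is a stretch in which bound regions of either factor at any stage were joined where they overlapped, and it held a factor at a stage where that factor had a region in it. At every site the regions of a factor shared at least 1 base over all of its stages. Where a site held both factors at a stage their regions overlapped, with 1 exception in Mttp.

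Apob had a region of both factors on or beside its start. A site at 7983553 to 7984872, whose middle lies 0.2 kb before the start, held HNF4α at 4 stages (all but P0.5) and C/EBPα at E18.5, P0.5 and P14. It was read on mm9 while the promoter shown above is on GRCm38.p6, so no base of one was placed on the other. The second site, 1.2 kb into the gene, held C/EBPα at all 5 stages and HNF4α at the same 4. The third, 27.6 kb before the start (7955858 to 7957920), was the only one of 19 Apob sites within 50 kb that held both factors at all 5 stages. At P0.5 this distal site was the single HNF4α region within 50 kb.

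Mttp had a site over its start (137805714 to 137807814) with C/EBPα from E18.5 on and HNF4α at P0.5, P14 and P60. Neither factor had a region there at E15.5. Within the gene, a site 12.3 kb downstream of the start held each factor at all 5 stages, but side by side: their regions there overlapped at P14 and at no other stage. A site at 9.7 kb held HNF4α at 5 stages and C/EBPα at 4, overlapping at those 4. The start of Rg9mtd2 also lies within 5 kb of the Mttp start.

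Lipc stood apart, with no region of either factor within 5 kb of its annotated start at any stage. Its nearest site of C/EBPα at all 5 stages lay 9.4 kb downstream. HNF4α was present at all 5 stages at 12.1 kb (70787144 to 70788658) and at 16.7 kb (70781519 to 70785056) downstream, both inside the gene, and C/EBPα joined it at 3 and 4 stages. The second RefSeq start of Lipc, whose window held the HNF4-type match, lies 17.4 kb downstream of the first on GRCm38.p6. Whether it falls in the site at 16.7 kb was not tested, since coordinates were not moved between builds. A site 29.7 kb before the start held both factors at 4 stages, E15.5 to P14.

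Lcat had a site at its start (108465712 to 108467951) with HNF4α at all 5 stages and C/EBPα from E18.5 on. HNF4α regions covered the start itself at P0.5, P14 and P60. No C/EBPα region did, and the nearest edges lay 323 to 487 bp from it. The Psmb10 start is within 5 kb of the Lcat start. Scarb1 had no region within 1 kb at any stage, and sites 3.7 kb and 17.2 kb into the gene that held both factors at all 5 stages. HNF4α was also present at all 5 stages 10.0 kb into Scarb1. Scarb1 had the most regions of the 6 genes, with 30 sites within 50 kb, of which 13 held both factors, at the same or different stages. At P60 it had 18 HNF4α regions within 50 kb, where the median gene had 2 and 99.8% of genes had fewer.

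Pltp had the least recurrent binding. It had no region within 1 kb at any stage, and none of its 12 sites within 50 kb held either factor at all 5 stages. A site 2.3 kb before the start (164684915 to 164686133) held C/EBPα at E18.5 and P0.5 and HNF4α at E15.5, P14 and P60, never both factors at the same stage. Of its 10 C/EBPα sites, 7 were seen at 1 stage only. Set beside the RNA, Apob and Mttp, with regions of both factors at the start at some stages, fell in the HNF4α knockout and did not pass in the C/EBPα knockout. At E18.5 the nearest HNF4α region lay 9497 bp from the Mttp start. At P60 the nearest C/EBPα region lay 656 bp from the Apob start. Which of these stages matches the RNA was not resolved. Lcat, with both within 1 kb of its start, fell in the C/EBPα knockout and did not pass in the HNF4α knockout. Lipc, with none within 5 kb of the annotated start used here, fell in both. Its second RefSeq start was not placed on the peaks, and sites with HNF4α at all 5 stages lay inside the gene. Scarb1, with both factors within 5 kb at every stage, and Pltp passed in neither. No relation between binding and RNA change was tested.

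**Figure D5:**
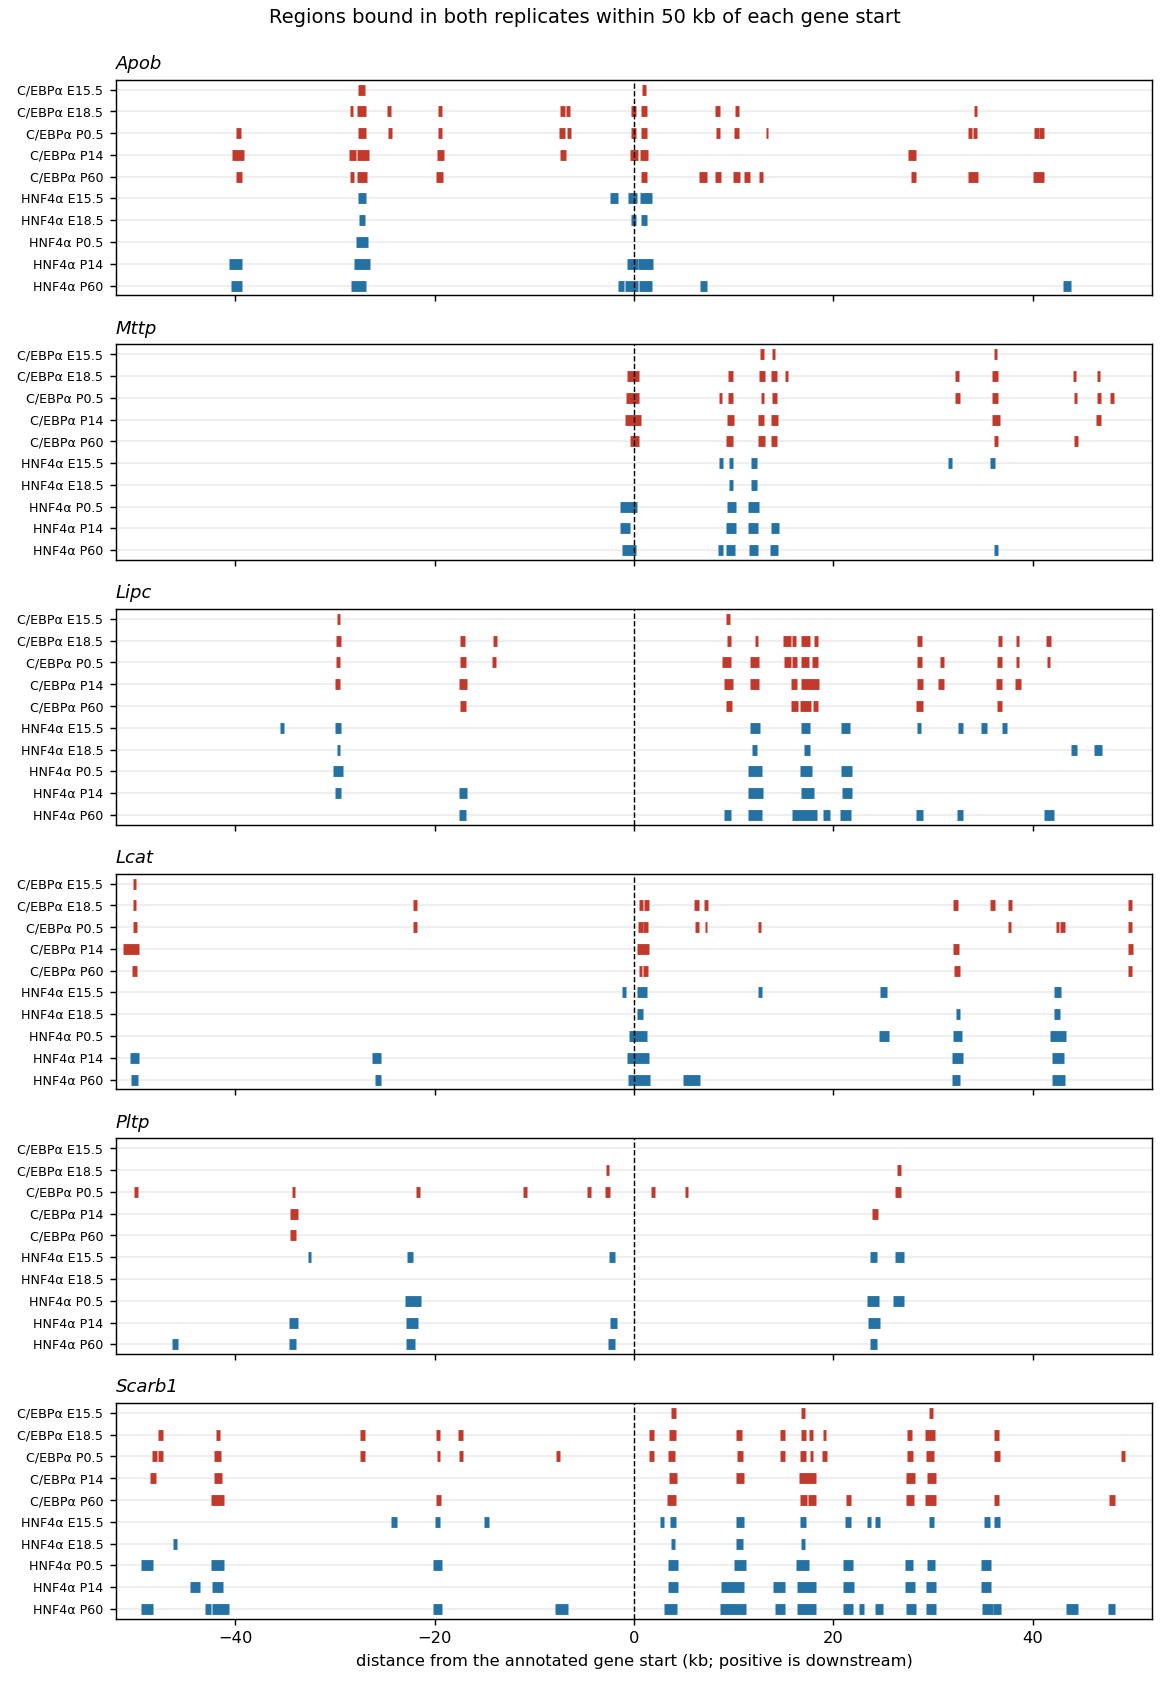
Regions bound in both replicates (bars, to scale) within 50 kb of each annotated gene start, by distance in kb (positive is downstream), with 1 line per factor and stage, red for C/EBPα and blue for HNF4α. Apob, Mttp and Lcat have bars over the dashed start line, Lipc has none within 5 kb, Pltp has few, and Scarb1 has the most.

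The genes whose log2 levels followed each of the 6 most closely over the 8 libraries were taken from 11910 genes with a mean of at least 100. They were Greb1l, Plcxd2 and Usp40 for Apob, Pipox, Lrp4 and Acot6 for Mttp, and Cpn2, Slc27a2 and Erbb3 for Lipc. For Lcat they were Tgm1, Mavs and 3930402G23Rik, for Pltp Thsd4, Numbl and Tnxb, and for Scarb1 Tmem38b, Gm17566 and Mchr1. The closest of each had a Pearson r of 0.982 or more, given as a description, since the 8 libraries share 3 groups.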

How the data were processed

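RNA levels in 8 mouse liver libraries and peaks of C/EBPα and HNF4α in 20 lists were used; 20 samples of RNA polymerase II and input DNA were not used here. The deposited RNA values were treated as a score: reads which the authors normalised with DESeq and rounded to whole numbers, per the file headers and labels. Build mm9, MACS 1.4, TopHat2, BWA, Cufflinks, DESeq, bedtools, FastQC and bcl2fastq are named in the submitters' processing notes. The peak lists hold positions; their score column, as deposited, is 0 throughout.

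Genes that reached 10 in 2 or more libraries were kept (17771 of 37583). All 8 libraries entered 1 limma fit (limma 3.58.1, R 4.3.3) of log2(value + 1) with a variance trend and a term for group. Log2 changes understate those of low genes. The 3 contrasts used 2-sided tests and an adjusted p (Benjamini-Hochberg, all genes kept) under 0.05; "fell", "rose" and "passed" refer to it. The fit was tested on simulated data. A stage counted as bound where peaks of both replicates overlapped by at least 1 bp; distances run from the annotated start to the middle of the region. Depth behind peaks is unknown.

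The 6 genes, the pathway list and the markers were chosen with earlier results of these data known. Named genes are the 6, pathway genes that passed against WT, P4hb, Apobec1 and Lpl, and the 3 closest patterns per gene; genes that passed only between the knockouts (Abcg1) and genes overlapping a member (Gm3436, Gm16156, Ctsa) were added after their values were seen. Some genes of these lists are not reported here. Angptl8 stands in the table as Gm6484. Alternatives were other pseudocounts, filters and scalings, a fit without trend, 2-group fits, a replicate block, leaving out libraries, and other windows and overlaps.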

Additional observations from a re-analysis of the deposited data

How the results depend on the processing

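Of the 3 falls in the HNF4α knockout, that of Apob was lost without HNF4α knockout replicate 1, leaving 2; the 3 passed in every other alternative run, and with only the 2 groups in the fit a rise of Pltp made 4 calls. The 2 falls in the C/EBPα knockout became 1 with no filter, with only the 2 groups and with a replicate block, and 0 with library totals, with no variance trend, and without both libraries of negative GC trend; leaving out 1 library gave 0 to 2. The 3 calls between the knockouts became 1 with no filter or with only the 2 groups, and 0 with no variance trend, with a replicate block or without both GC-trend libraries; leaving out 1 library gave 0 to 6. Apob, Mttp and Lipc kept their direction in all alternatives of all 3 contrasts. Pltp in the C/EBPα knockout turned to 0.18 with library totals, and leaving out 1 library gave -0.91 to 0.27, turning sign without C/EBPα knockout replicate 2. Library totals moved the median of all genes to 0.53 in the C/EBPα contrast and 0.57 between the knockouts, and the share of calls that were lower from 76.4% to 40.6% and from 53.6% to 21.1%, and it set Lipc and Lcat at -1.38 and -1.09 in the C/EBPα contrast. The cause of the other changes was not tested.

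Deviations of same-numbered libraries from their group means had correlations of -0.231 to 0.19. With 2 or 3 libraries a group, these correlations cannot decide whether the numbers pair the samples. With a replicate block 509, 486 and 288 genes were called in the order of the 3 contrasts, against 666, 836 and 619. Over all genes, leaving out 1 library gave 309 to 801, 212 to 1345 and 86 to 849 calls, and leaving out both GC-trend libraries 219, 350 and 136. With only the 2 groups the HNF4α contrast called 1267 and that between the knockouts 320, and with no filter the latter called 403.

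Within 1 kb of the start, 13 gene and stage pairs had a C/EBPα region and 12 an HNF4α region, against 20 and 20 within 5 kb. A window of 10 kb gave 25 and 23, 50 kb 29 and 29, and the other overlap rules 19 to 22. Over all genes tested, the share with a region, by stage, was 6.91% to 47.4% (C/EBPα) and 6.10% to 29.6% (HNF4α) within 1 kb, 19.9% to 78.0% and 19.8% to 49.6% within 10 kb, and 50.8% to 95.1% and 54.6% to 80.9% within 50 kb. Without P0.5, a choice made after seeing the identical lists, 17 HNF4α pairs remained.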
